A study of Mus musculus with 6 samples.

Results

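The abundant long non-coding RNAs of mouse brain examined here were Tug1, Malat1, Neat1, Miat, Snhg11, Gas5, Rian and Mirg, 8 of the 18193 genes that the platform annotation names on this array. They were chosen by name, and every probe set (a group of short probes designed against 1 transcript) whose only gene symbol was one of these 8 was included, which gave 26 of 45101 probe sets. Malat1 had 7 of them, Gas5 and Rian 4 each, Tug1 3, and Neat1, Miat, Snhg11 and Mirg 2 each. Brain RNA was compared between mice without Dap12, the signalling adaptor of microglia that the gene Tyrobp encodes (Dap12-ko; 3 mice, named 67, 68 and Ko1), and mice that carry 1 disrupted copy (Dap12-het; 3 mice, named 75, 76 and 81). All were 1 month old, and each mouse gave 1 Affymetrix array. The design gives the tissue as the midbrain with the diencephalon and the basal ganglia. Both groups carry the disrupted allele and no wild-type mice were included, so the comparison is between no working copy and 1; sex, strain and the way the allele was made are not given in the sources used here.

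Long non-coding RNAs are long transcripts, many of them spliced and polyadenylated like messenger RNAs, that are not known to be read into protein. Several of these 8 stay in the nucleus: Malat1 collects in nuclear speckles, where splicing factors are stored, Neat1 is the scaffold of paraspeckles, and Miat, also called Gomafu, forms its own nuclear domain in neurons. Gas5 and Snhg11 carry small nucleolar RNAs in their introns. Rian and Mirg are imprinted transcripts, expressed from the maternal chromosome, that carry microRNAs, and Rian also carries small nucleolar RNAs. Tug1 is a conserved transcript first described in the developing retina and is found in both nucleus and cytoplasm.

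The arrays themselves differed between and within the groups. Tyrobp, the targeted gene, was at 2.28, 23.7 and 12.9 in knockout mice 67, 68 and Ko1 against 68.2 to 77.6 in heterozygous mice, a log2 change of -1.68 ± 0.33 (limma adjusted p = 0.0439). Whether its probes fall inside the disrupted stretch was not examined. All 6 arrays had a trimmed mean signal of about 100, but the spread of signals around it differed. The median signal was 20.34 to 21.98 on the heterozygous arrays and 40.4, 35.8 and 24.7 on knockout 67, 68 and Ko1. The highest signal was 7417 to 7790 on the heterozygous arrays and 46271, 28024 and 16673 on the same knockout arrays. The 45 spiked bacterial controls had a mean log2 signal of 12.48, 11.88 and 11.89 on knockout 67, 68 and Ko1. On the heterozygous arrays it was 10.40 to 10.53. The part of these differences between arrays in the results that follow was not tested. The log2 excess of 3' over 5' probe sets, a sign of RNA quality, was 0.66 to 1.08 for beta-actin on the heterozygous arrays and 0.81 to 1.22 on the knockout arrays. For pyruvate carboxylase it was 2.46 to 2.64 and 1.30 to 1.73. For transferrin receptor it was 0.33 to 0.57 on the heterozygous arrays and 0.32, 0.24 and 0.97 on knockout 67, 68 and Ko1. The values for Gapdh were -0.005 to 0.50 on the heterozygous arrays and 0.27, -0.16 and -0.51 on knockout 67, 68 and Ko1. Ko1 was thus the highest array for transferrin receptor and the lowest for Gapdh. The labels list 6 separate mice, and precision is limited by there being 3 arrays a group.

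Among the 26 probe sets, 1 rose and 1 fell in knockout brain, a Tug1 probe set about 4-fold up and a Malat1 probe set at 0.178 times its heterozygous mean. None of the 8 genes had all its probe sets called, and for 6 of the 8 no probe set passed. All 26 passed the filter on low signals (a mean log2 signal over the 6 arrays above that of a signal of 24.2) and were tested, 3 of them, from Malat1, Neat1 and Miat, only through their knockout arrays. The 2 calls are 1 higher where 1.24% of all tested probe sets were called higher, and 1 lower where 0.733% were called lower (limma, Benjamini-Hochberg adjusted over 22518 probe sets, threshold 0.05; 1.98% called in all). That split depends on scaling: 62.9% of all 445 calls were higher as deposited, and 17.2% of 581 with every array centred on its median. An unadjusted p under 0.05 was reached by 7 of the 26 against 20.9% of all tested probe sets, and the groups did not overlap for 8 of the 26 against 27.4%. Both counts include Malat1 1427285_s_at and Neat1 1442881_at, which were tested only through their knockout arrays. These shares were near the background. The members' median log2 change was 0.09 (14 above 0 and 12 below) beside 0.00 for all tested probe sets. Centring on medians lowers the median change of all probe sets by 0.40 and turned the sign of 7 member probe sets, none of them called. The members were more variable within a group than most: the median range between 3 arrays of a group was 0.59 on the log2 scale for heterozygous and 1.01 for knockout arrays, beside 0.36 and 0.71 over all tested probe sets.

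**Figure D1:**
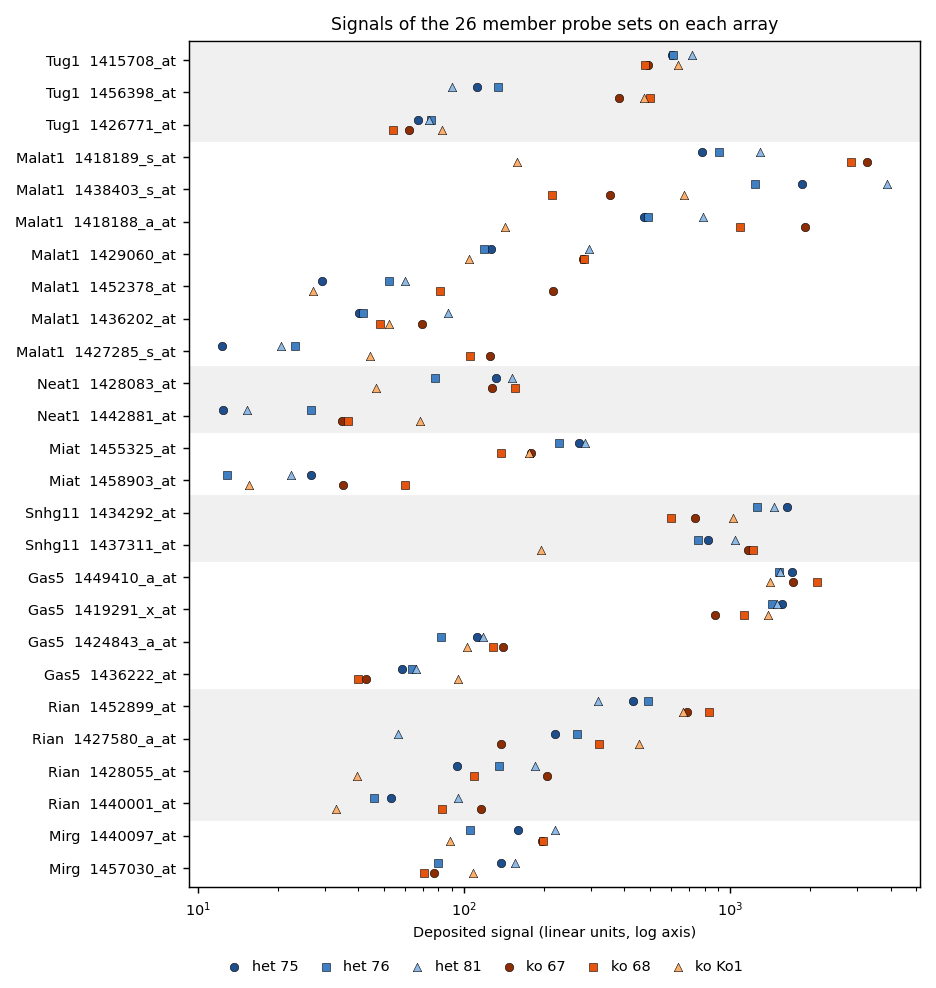
Deposited signal (log axis) of each of the 26 probe sets on the 3 heterozygous (blue, upper) and 3 knockout (orange, lower) arrays, grouped by gene with the brightest probe set first. The knockout points of Tug1 1456398_at, 381 to 501, lie above all its heterozygous points, and those of Malat1 1438403_s_at, 214 to 672, lie below them.

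Among the 8 genes Tug1 showed the clearest difference, on 1 of its 3 probe sets. Probe set 1456398_at read 112, 134 and 90.5 on heterozygous 75, 76 and 81 and 381, 501 and 474 on knockout 67, 68 and Ko1. Every knockout signal was thus above every heterozygous one, with little spread in either group. The means were 112 ± 21.8 and 452 ± 62.9 (SD, n = 3), a ratio of 4.03, and the probe set rose, with a log2 change of 1.87 ± 0.21 (SE; adjusted p = 0.0171 by limma; an exact permutation test gave 0.1, the lowest p that 3 against 3 arrays allow). The brightest Tug1 probe set, 1415708_at, read 602, 610.0 and 721 on the heterozygous arrays and 489.6, 478 and 636 on knockout 67, 68 and Ko1. Its groups overlapped, and its log2 change of -0.27 ± 0.19 did not pass (adjusted p = 0.45). The dimmest, 1426771_at, was designed from the same source sequence as the brightest and read 67.4, 75.1 and 74.1 against 62.4, 54.1 and 82.6 (-0.11 ± 0.22, adjusted p = 0.809). Tug1 thus had 1 probe set that rose and 2 whose groups overlapped. Of all 22518 tested probe sets 280 were called higher and 165 lower, but of the 11467 that were the brightest of their gene 41 and 115. Dimmer probe sets of Syt1 and Map2 also rose while the brightest of each gene did not pass, so this pattern was not particular to Tug1. The call on 1456398_at was lost without heterozygous 75 (adjusted p = 0.126), heterozygous 81 (0.0937), knockout 67 (0.0583) or knockout 68 (0.0982), while its log2 change stayed between 1.75 and 1.99 on leaving out any 1 array.

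The difference between the Tug1 probe sets was tested directly, as the per-array log2 difference of each probe set from the brightest one of its gene. For 1456398_at this difference was -2.27, -2.06 and -2.79 on heterozygous 75, 76 and 81 and -0.35, 0.07 and -0.41 on knockout 67, 68 and Ko1. The knockout arrays all lay nearer to 0 than the heterozygous ones. The shift was 2.14 ± 0.30 (limma adjusted p = 0.0158 over 8455 such differences, of which 8.84% were called; exact permutation p = 0.1). This test sees only differences within an array, so scaling of a whole array does not enter it before the added 16. A difference between arrays that depends on the signal level can enter it, and its part was not tested. With quantile normalization 215 such differences were called over the whole array, against 747 as deposited, the Tug1 one among them (limma adjusted p = 0.0217). The Tug1 call was lost without heterozygous 75 (adjusted p = 0.0761), heterozygous 81 (0.101) or knockout 68 (0.0699).

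Malat1 was measured by 7 probe sets, of which 1 fell and 6 did not pass. Its probe set 1438403_s_at read 1861, 1235 and 3881 on heterozygous 75, 76 and 81 and 353, 214 and 672 on knockout 67, 68 and Ko1. All knockout signals lay below all heterozygous ones, and heterozygous 81 was far above the other arrays. The means were 2326 ± 1383 and 413 ± 235 (SD, n = 3), and the probe set fell, with a log2 change of -2.43 ± 0.48 (adjusted p = 0.0445 by limma; 0.1 by the exact permutation test). Under quantile normalization it no longer passed (adjusted p = 0.0709), nor did it when signals were floored at 1 with nothing added (0.0542), when probe sets of any level were tested (0.0701) or when the spread was modelled without a trend (0.063). It was also lost without any array other than knockout Ko1, with log2 changes from -2.84 without Ko1 to -1.98 without heterozygous 81. The letter s marks probes that several transcripts share, so signal from another transcript cannot be told apart in this probe set or in the other 2 of that kind.

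The 2 other bright Malat1 probe sets, designed from 1 source sequence, split the knockout group. Probe set 1418189_s_at read 3267 and 2829 on knockout 67 and 68 but 158 on knockout Ko1, with 784, 906 and 1294 on heterozygous 75, 76 and 81. Knockout 67 and 68 were the highest and Ko1 the lowest of the 6 arrays. Probe set 1418188_a_at had the same order, at 1913 and 1087 on knockout 67 and 68, 143 on Ko1, and 476, 491 and 792 on the heterozygous arrays. Their log2 changes were 0.25 ± 0.96 (adjusted p = 0.909) and 0.25 ± 0.78 (adjusted p = 0.887), so the genotype difference was far smaller than the spread between knockout mice. Without Ko1, where 23.2% of all tested probe sets were called, they were 1.63 (limma adjusted p = 0.00198) and 1.31 (adjusted p = 0.0147). Without knockout 67 they were -0.49 in both. The sign of both thus turned with the mouse left out.

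The 4 dimmer Malat1 probe sets ran closer to this pair than to 1438403_s_at. Probe set 1452378_at read 217, 81.2 and 27.1 on knockout 67, 68 and Ko1 and 29.2 to 59.9 on the heterozygous arrays (0.69 ± 0.54, adjusted p = 0.505). Probe set 1427285_s_at, from the same source sequence, read 125, 105 and 44.5 on the knockout arrays and 12.3, 23.3 and 20.5 on heterozygous 75, 76 and 81. The change of 1.56 ± 0.35 missed the threshold (adjusted p = 0.0623). All its heterozygous signals lay below the filter level of 24.2, so it was tested only through its knockout arrays, and the separation of its groups supports nothing. Probe set 1429060_at was at 280.1 and 282 on knockout 67 and 68 and at 294 on heterozygous 81, with the remaining arrays between 105 and 126 (0.28 ± 0.43, adjusted p = 0.751). On 1436202_at the heterozygous mean was 56.3 ± 26.4 and the knockout mean 56.7 ± 11.1 (SD, n = 3; 0.05 ± 0.30, adjusted p = 0.936). All 6 Malat1 probe sets other than 1438403_s_at had log2 changes above 0, which centring the arrays on their medians put below 0 for 4 of them.

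Neat1 lies next to Malat1 on chromosome 19, with no annotated gene between them in the mouse assembly GRCm38.p6. Its brighter probe set, 1428083_at, read 131, 77.6 and 151 on heterozygous 75, 76 and 81 and 127, 155 and 46.9 on knockout 67, 68 and Ko1. The groups overlapped and Ko1 was again the lowest array (-0.19 ± 0.39, adjusted p = 0.817; 0.25 without Ko1). The dimmer one, 1442881_at, read 12.4, 26.6 and 15.4 against 35.0, 36.5 and 68.1, and here Ko1 was the highest. It did not pass either (0.86 ± 0.32, adjusted p = 0.175). Its heterozygous mean of 18.1 lay below the filter level, so it too was tested only through its knockout arrays.

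Miat is expressed mainly in neurons, where its RNA binds splicing factors such as Celf3. Its brighter probe set, 1455325_at, read 271, 228 and 285 on heterozygous 75, 76 and 81 and 179, 137 and 175 on knockout 67, 68 and Ko1. All 3 knockout mice were lower, but the change of -0.63 ± 0.20 missed the threshold (limma adjusted p = 0.13). The adjusted p was 0.0372 without Ko1, where 23.2% of all tested probe sets were called, and up to 0.395 without another array. The dim 1458903_at read 12.9 to 26.6 on heterozygous arrays and 35.2, 59.9 and 15.6 on knockout 67, 68 and Ko1 (0.46 ± 0.37, adjusted p = 0.515). The shift between these 2 probe sets was 1.09 ± 0.39 (adjusted p = 0.106). The heterozygous mean of 1458903_at, 20.6, lay below the filter level, so this shift rests on a probe set that was tested only through its knockout arrays.

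Snhg11, a small nucleolar RNA host that is abundant in neurons, gave 2 bright probe sets with different orders of the mice. On 1434292_at the heterozygous arrays 75, 76 and 81 read 1630.2, 1262.5 and 1458, and knockout 67, 68 and Ko1 read 735, 600.0 and 1025. The knockout mean of 787 ± 217 was 0.542 times the heterozygous mean of 1450.2 ± 184 (SD, n = 3), with no overlap, and the log2 change of -0.90 ± 0.22 missed the threshold (adjusted p = 0.0773). On 1437311_at knockout 67 and 68 were the highest arrays at 1168 and 1221, and Ko1 was the lowest at 195, with 755 to 1039 on the heterozygous arrays (-0.38 ± 0.60, adjusted p = 0.754). Without Ko1, where 23.2% of all tested probe sets were called, the first was at -1.10 (limma adjusted p = 0.00314). The second was then at 0.46 (adjusted p = 0.0687). With another array left out, the adjusted p of the first was up to 0.297. The shift between them was 0.51 ± 0.73 with all arrays (adjusted p = 0.669) and 1.56 without Ko1 (adjusted p = 0.00466). Over the whole array, 2898 within-gene differences were called without Ko1, against 747 with all arrays.

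Gas5 hosts many small nucleolar RNAs, and its spliced transcript is degraded by nonsense-mediated decay while it is being translated. None of its 4 probe sets passed. The brightest, 1449410_a_at, read 1706, 1518 and 1541 on heterozygous 75, 76 and 81 and 1719.8, 2125 and 1409 on knockout 67, 68 and Ko1 (0.12 ± 0.19, adjusted p = 0.749). Probe set 1419291_x_at read 1561, 1431 and 1499 against 875, 1125 and 1391. All knockout signals were below the heterozygous ones, and the change of -0.42 ± 0.20 did not pass (limma adjusted p = 0.262). Without Ko1, where 23.2% of all tested probe sets were called, it was -0.58 (adjusted p = 0.0211). Without another array the adjusted p was up to 0.555. The letter x marks probes that may also match unrelated transcripts. The 2 dimmer probe sets were at 104 ± 18.9 and 124 ± 18.97 for 1424843_a_at and at 62.8 ± 3.76 and 59.3 ± 31.2 for 1436222_at, in heterozygous and knockout (SD, n = 3), with log2 changes of 0.22 ± 0.22 and -0.14 ± 0.30. A further probe set is annotated to both Gas5 and Snord47, one of its hosted RNAs, and was left out by the rule; it read 86.1 to 120 on the heterozygous and 51.0 to 82.6 on the knockout arrays.

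Rian and Mirg lie in the imprinted region between Dlk1 and Dio3 on chromosome 12, downstream of Meg3. By the RefSeq annotation of GRCm38.p6, 3 microRNA hairpins lie within Rian and 10 within Mirg on the same strand, the latter with 19 mature microRNAs of 18 different seeds. The array probe sets measure the long host transcripts, not these products. To show what Mirg carries, the mature sequences with a shared seed and those of both arms of the hairpins for miR-154 and miR-410 are given, 5' to 3', with the seed (bases 2 to 8) in capitals, from RefSeq (GRCm38.p6).
mmu-miR-453: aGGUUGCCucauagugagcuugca
mmu-miR-496a-5p: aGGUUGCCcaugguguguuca
mmu-miR-154-5p: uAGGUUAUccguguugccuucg
mmu-miR-154-3p: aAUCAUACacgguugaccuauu
mmu-miR-410-5p: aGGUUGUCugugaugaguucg
mmu-miR-410-3p: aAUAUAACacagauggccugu

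The brightest Rian probe set was higher in all 3 knockout mice without reaching the threshold. Probe set 1452899_at read 432, 489.7 and 319.8 on heterozygous 75, 76 and 81 and 689.9, 832 and 666 on knockout 67, 68 and Ko1, so the groups were separate. The means were 414 ± 86.4 and 729 ± 89.6 (SD, n = 3), a log2 change of 0.81 ± 0.21 (limma adjusted p = 0.083). Its adjusted p was 0.0182 without Ko1, where 23.2% of all tested probe sets were called, and up to 0.272 without another array. Probe set 1427580_a_at ranged from 56.6 on heterozygous 81 to 454 on Ko1 (0.78 ± 0.56, adjusted p = 0.462). The other 2 had Ko1 as their lowest array. Probe set 1428055_at was highest on knockout 67 (205) and heterozygous 81 (185) and lowest on Ko1 (39.5), with a change of -0.37 ± 0.47 (adjusted p = 0.685), and 1440001_at was at 116, 95.3 and 33.2 on the same arrays (0.14 ± 0.39, adjusted p = 0.872). The shifts of these 2 against the brightest Rian probe set were -1.18 ± 0.51 (adjusted p = 0.157) and -0.67 ± 0.45 (adjusted p = 0.35).

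Mirg did not differ beyond the spread of the mice. Its brighter probe set, 1440097_at, read 160.2, 105 and 219 on heterozygous 75, 76 and 81 and 197, 198 and 88.3 on knockout 67, 68 and Ko1, giving 161 ± 57.1 and 161 ± 63.0 (SD, n = 3; -0.03 ± 0.35, adjusted p = 0.975). The dimmer 1457030_at read 138, 79.5 and 155 against 77.0, 70.5 and 108 (-0.45 ± 0.28, adjusted p = 0.396). On both probe sets heterozygous 81 was the highest of the 6 arrays.

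Over all 8 genes, 18 probe sets could be compared with the brightest one of their gene, and only the Tug1 difference was called (1 of 18 beside 8.84% of all such differences). The groups did not overlap for 3 of the 18 beside 34.5% of all. Besides the Tug1 difference these were Malat1 1427285_s_at and Miat 1458903_at, both tested only through their knockout arrays. The widest shift among them, for Malat1 1438403_s_at against 1418189_s_at, was -2.68 ± 1.21 and did not pass (adjusted p = 0.173). The per-array difference was -3.15 and -3.63 on knockout 67 and 68 but 1.99 on Ko1, beside 1.23, 0.44 and 1.57 on heterozygous 75, 76 and 81. Without Ko1 that shift was -4.47 (limma adjusted p = 0.000993), in a fit that called 2898 within-gene differences over the whole array, against 747 with all arrays. Without heterozygous 81 the shift was -2.43 (adjusted p = 0.369).

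**Figure D2:**
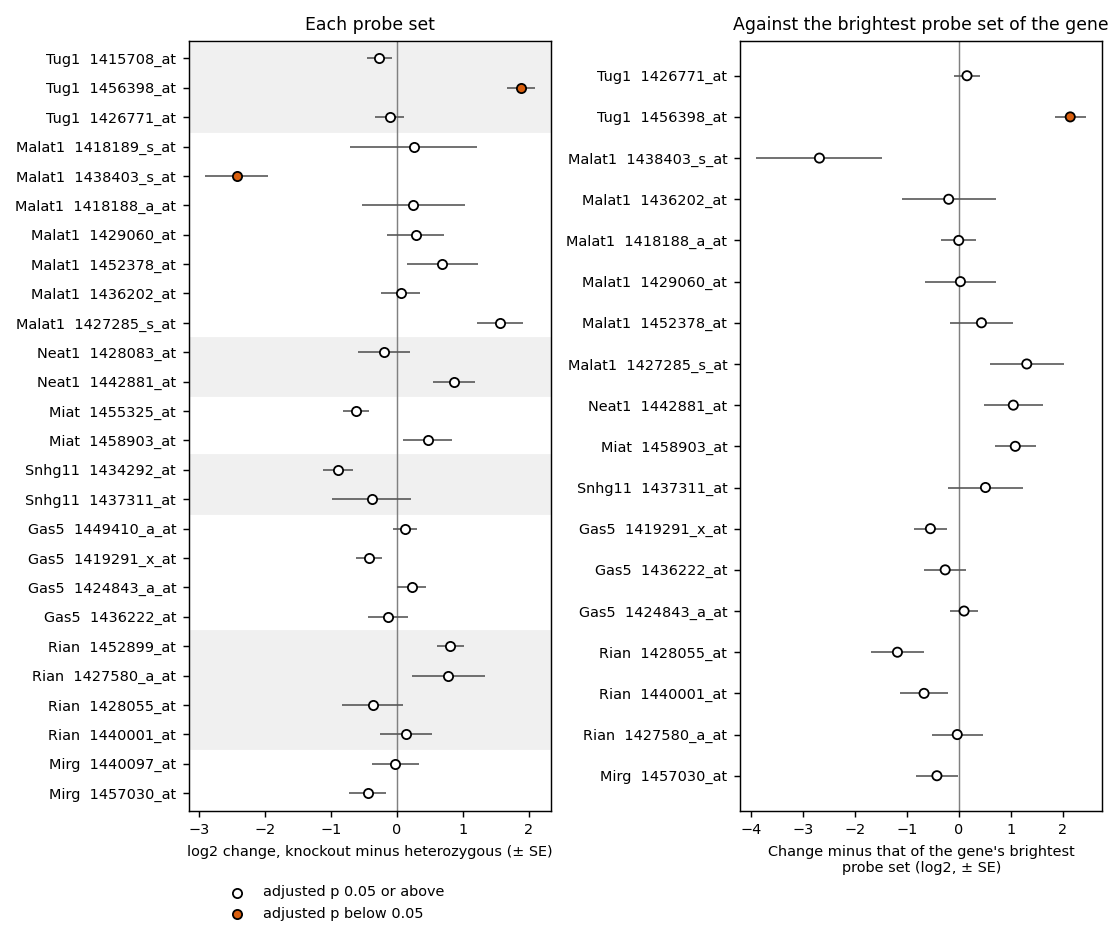
Left, log2 change (knockout minus heterozygous, with SE from limma) of each of the 26 probe sets; right, the change of each other probe set minus that of the brightest probe set of its gene. Filled points passed an adjusted p of 0.05: Tug1 1456398_at (1.87) and Malat1 1438403_s_at (-2.43) on the left, and Tug1 1456398_at (2.14) on the right.

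How many members were called depended on which mice were included. Without knockout Ko1, 10 of the 25 member probe sets then above the filter were called, beside 23.2% of all tested ones: 5 of Malat1 and 1 each of Tug1, Snhg11, Miat, Gas5 and Rian. The Malat1 ones include 1427285_s_at, which was tested only through its knockout arrays. Without heterozygous 76 only Tug1 1456398_at was called, where 0.129% of all probe sets were. With heterozygous 75, heterozygous 81, knockout 67 or knockout 68 left out, 0 members and 0% of all probe sets were called (limma). In fits chosen after seeing the data, 4 members were called without knockout 67 and 68 together, where 2.75% of all tested probe sets were, and 11 without Ko1 and heterozygous 81 together, where 20.8% were. Tug1 1456398_at was among the called ones in both, and Malat1 1427285_s_at was again among the 11.

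The arrays took different places in the order of the members' signals. Heterozygous 81 was the highest of the 3 heterozygous arrays for 16 of 26 member probe sets (61.5%), beside 35.5% of all tested probe sets. Knockout Ko1 was the lowest of all 6 arrays for 10 of 26 (38.5%), beside 21.7%. Those 10 were 4 Malat1 probe sets, 2 of Rian and 1 each of Neat1, Snhg11, Gas5 and Mirg, so each of these 6 genes had a probe set at its lowest on Ko1. These counts were made after the values were seen, and probe sets of 1 gene are not independent of each other.

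**Figure D3:**
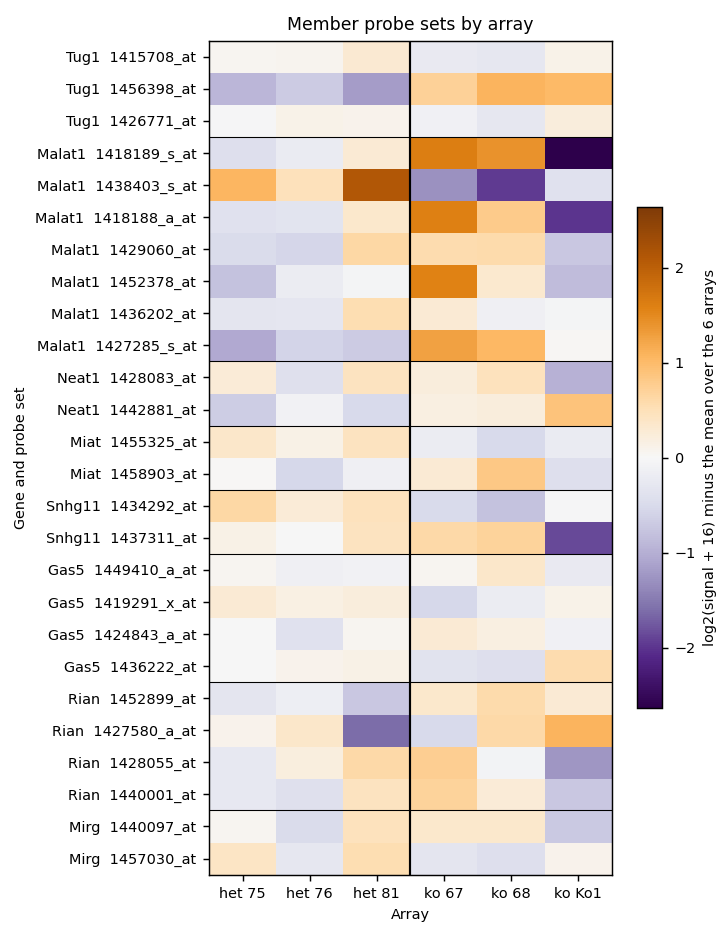
Each row is a member probe set and each column an array; colour is log2(signal + 16) minus the row's mean over the 6 arrays. Ko1 is the lowest array for 10 of the 26 rows, among them both Malat1 1418189_s_at and Snhg11 1437311_at, while Tug1 1456398_at separates heterozygous from knockout.

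Summed signals of region markers separated mice within each group. The summed signal of 6 tested striatal genes (of 8 listed) was 2096, 1480.4 and 5899 on heterozygous 75, 76 and 81 and 549, 1048 and 6734 on knockout 67, 68 and Ko1. That of 8 thalamic genes was 4445, 5744 and 2899 against 4556, 4768 and 1464. Striatal signal was thus highest and thalamic signal lowest on heterozygous 81 and Ko1. Choroid plexus genes (6 tested of 7) summed to 849, 1648 and 3769.8 on the heterozygous arrays and to 16391, 18012 and 671 on knockout 67, 68 and Ko1, so 67 and 68 stood apart from the rest, as they did on Malat1 1418189_s_at. Ttr, the transthyretin gene, alone gave 16069 and 17643 of the sums on 67 and 68. Folr1, Kcnj13 and Kl were also highest on those arrays, while Clic6 was highest on Ko1 (168) and Otx2 on heterozygous 75 (89.1). Hypothalamic genes (8 tested of 10) summed to 4668 to 8102 on heterozygous and to 2691 to 6694 on knockout arrays, with a median log2 change of -0.90 between the groups. The array Ko1, lowest for the Malat1, Neat1, Snhg11, Gas5, Rian and Mirg probe sets counted before, was also lowest on the thalamic and choroid plexus sums. On striatal markers it lay with heterozygous 81, which was the highest heterozygous array for 16 of the 26 member probe sets. The part of regional make-up in the members' values was not tested. In bulk tissue, fewer cells that make an RNA and less RNA per cell cannot be told apart.

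Among cell type lists, oligodendrocyte markers summed to 21115 to 21734 on heterozygous arrays and to 66448, 51665 and 28629.9 on knockout 67, 68 and Ko1. Of 9 tested, 2 rose (Mal and Mbp, both myelin proteins) and 1 fell (Myrf, the myelin transcription factor), beside 0.358% and 1.00% of all 11467 genes called higher and lower on their brightest probe set (1.36% in all). Neuronal markers summed to 19265 to 20814 and to 20649 to 28175, with 0 of 10 called (limma; 4 at an unadjusted p under 0.05), and the smallest p was that of Syp, synaptophysin (-1.03 ± 0.21, adjusted p = 0.0506). Snap25 (0.88 ± 0.19, adjusted p = 0.0549) and Rbfox3 (0.93 ± 0.21, adjusted p = 0.0587) followed in the other direction. Over all 21 tested neuronal probe sets 4 were called, all higher, 2 of Map2 and 2 of Syt1, with log2 changes from 2.07 to 2.73; none was the brightest of its gene, and these genes were named after their values were seen. Astrocyte markers summed to 13239 to 16453 and 19043 to 20384, with 1 of 10 called, Glul, the glutamine synthetase gene (1.13 ± 0.23, adjusted p = 0.0485). Their median log2 change was -0.11, however, and 4 had an unadjusted limma p under 0.05. Of these Glul, Aldoc and Gja1 were higher and Gfap was lower (-1.25 ± 0.52, adjusted p = 0.219). Microglial markers summed to 2205 to 2578 and 3157 to 3506, with 0 of 9 called (limma; 3 at an unadjusted p under 0.05) and C1qa at 0.91 ± 0.22 (adjusted p = 0.0748). In the hypothalamic list 1 of 8 fell, Baiap3 (-1.68 ± 0.31, adjusted p = 0.0391). With quantile normalization, no filter or no trend, 0 genes of the oligodendrocyte, astrocyte and hypothalamic lists were called (limma), and 0 astrocyte genes with a floor of 1 or arrays centred on their medians. Of the endothelial, choroid plexus, pituitary, blood, thalamic and striatal lists, with 8, 6, 2, 1, 8 and 6 genes tested, 0 were called (limma; 0, 3, 1, 1, 1 and 0 at an unadjusted p under 0.05). The smallest p in these lists belonged to Kdr (adjusted p = 0.341), Kl (0.143), Gh (0.0592), Alas2 (0.129), Calb2 (0.23) and Penk (0.479). No marker was at 0, since every deposited signal is above it.

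**Figure D4:**
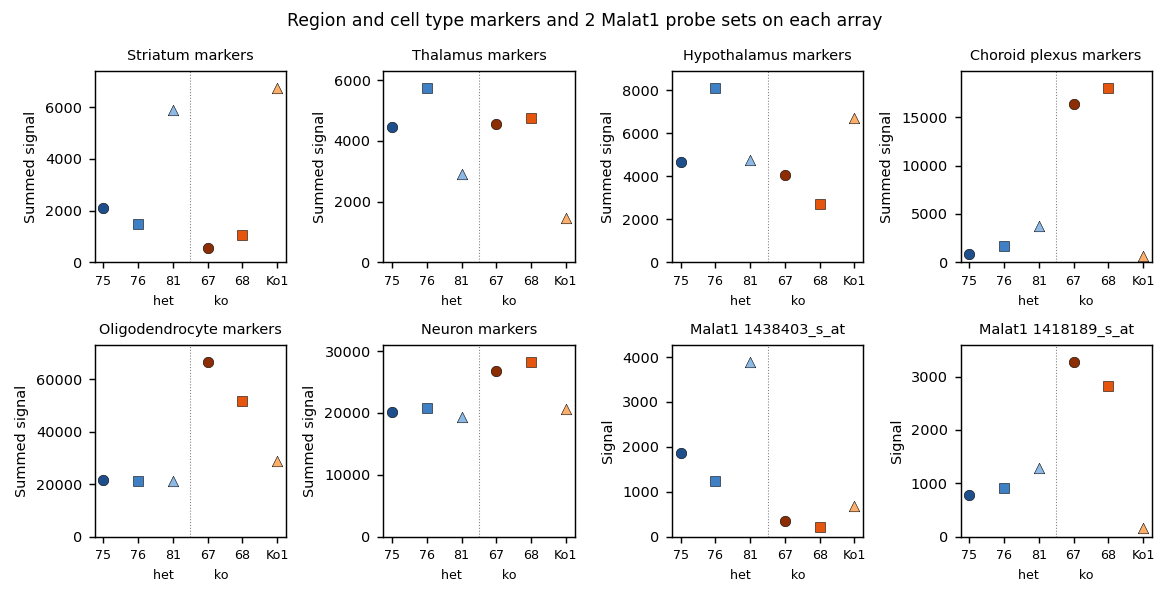
Summed signals of 6 marker lists (brightest tested probe set of each gene) and signals of 2 Malat1 probe sets on each array, with axes from 0. Striatal markers are highest on heterozygous 81 (5899) and knockout Ko1 (6734), and choroid plexus markers on knockout 67 (16391) and 68 (18012), where Malat1 1418189_s_at is highest too (3267 and 2829).

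The other long non-coding RNAs on the array gave no call on their brightest probe set. Of 35 listed, 28 had a probe set and 19 were tested, with 0 called (limma; 2 at an unadjusted p under 0.05) and a median log2 change of -0.08, beside -0.09 over all 11467 genes. The smallest p was that of Jpx, an activator of Xist (0.84 ± 0.30, adjusted p = 0.167). Norad, a cytoplasmic decoy for Pumilio proteins, had a brightest probe set that did not pass (-0.09 ± 0.23, adjusted p = 0.863) and a dimmer one at 3.83 ± 0.32 (adjusted p = 0.0128), whose heterozygous mean of 22.8 lay below the filter level, so that it was tested only through its knockout arrays. Xist, the RNA of the inactive X chromosome, was too dim to be tested and read 38.5, 60.2 and 52.3 on its 3 probe sets on knockout 67 against 0.406 to 20.2 on the other 5 arrays.

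Around Rian and Mirg, 7 of 10 listed genes of the Dlk1-Dio3 region were tested and 1 fell, Dlk1, the paternally expressed Notch ligand (-1.12 ± 0.18, adjusted p = 0.0287). Its 2 probe sets both passed; with quantile normalization no gene of the list was called on its brightest probe set. The maternally expressed Meg3 had 11 tested probe sets, of which 0 were called (limma; 4 at an unadjusted p under 0.05, all lower in knockout, with log2 changes from -0.91 to -0.48). Its 1429257_at read 738, 1044 and 1928 on heterozygous 75, 76 and 81 and 4611, 3084 and 404 on knockout 67, 68 and Ko1, an order like that of Malat1 1418189_s_at, and its brightest, 1452906_at, was at -0.19 ± 0.35 (adjusted p = 0.792).

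Of the small nucleolar RNA hosts related to Gas5 and Snhg11, 19 of 25 were tested and 1 rose, Hspa8, a constitutive chaperone that hosts such RNAs in its introns (1.01 ± 0.20, adjusted p = 0.0464). That call was on 1455789_x_at, and the other Hspa8 probe sets, at 0.50 to 0.76, did not pass (limma adjusted p from 0.206 to 0.317). The list's median change was 0.12. The Hspa8 call was lost with quantile normalization, with arrays centred on their medians, with a floor of 1, with no filter and with no trend. Of 7 genes of nonsense-mediated decay, which limits Gas5, 0 were called (limma; 0 at an unadjusted p under 0.05), the smallest p being that of Smg5 (-0.33 ± 0.21, adjusted p = 0.412), and the helicase Upf1 was at -0.33 ± 0.36 (adjusted p = 0.64).

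Of 15 paraspeckle proteins, which assemble on Neat1, 1 fell: Ewsr1, an RNA-binding protein, from 649 ± 38.2 to 253 ± 41.4 (SD, n = 3; -1.32 ± 0.19, adjusted p = 0.0242). That call was on 1436884_x_at, of the kind whose probes may match unrelated transcripts. The other Ewsr1 probe set, 1417238_at, did not pass (-0.45 ± 0.21, limma adjusted p = 0.257). The core paraspeckle proteins Nono and Sfpq were at -0.27 ± 0.16 (adjusted p = 0.392) and 0.59 ± 0.40 (adjusted p = 0.441). Of 18 nuclear speckle proteins and partners of Malat1 or Miat, 0 were called on their brightest probe set (limma; 2 at an unadjusted p under 0.05). The smallest p there was that of Srsf1, a splicing factor that binds Malat1 (0.77 ± 0.20, adjusted p = 0.0868), and Celf3 was at 0.53 ± 0.32 (adjusted p = 0.384). Other Srsf1 probe sets ranged from -0.73 ± 0.22 (1453722_s_at, adjusted p = 0.118) to 1.23 ± 0.30 (1452430_s_at, 0.0739). Of all 61 tested probe sets of this list 1 was called, Srsf10 1418527_a_at (1.12 ± 0.21, limma adjusted p = 0.0419), while the brightest of Srsf10 was at -0.68 ± 0.41 (0.38). Of 11 Polycomb subunits, chromatin repressors with which Tug1 has been linked, 0 were called (limma; 1 at an unadjusted p under 0.05, Suz12 at -0.58 ± 0.20, adjusted p = 0.148).

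The probe sets of other genes whose pattern over the 6 arrays lay nearest to a member's were found by the mean absolute difference of centred log2 signals, over 19896 tested probe sets. Nearest to Tug1 1456398_at were probe sets of Ptchd1 (0.115) and Slk (0.121), where the median over all compared probe sets was 0.945. For Tug1 1415708_at they were those of Pabpc4 (0.028) and C1galt1 (0.032), with a median of 0.323. For Malat1 1418189_s_at they were those of Atp2b2, a plasma membrane calcium pump (0.274), and Meg3 (0.350), with a median of 1.11. For Malat1 1438403_s_at they were those of Rasd2, a small GTPase enriched in striatum (0.330), and Aldh18a1 (0.366), with a median of 1.23. The nearest neighbours of the called Malat1 probe set were thus farther away than those of the called Tug1 probe set. Both Neat1 1428083_at and Mirg 1440097_at had a probe set of Ndufab1, a mitochondrial acyl carrier protein, as their nearest (0.078 and 0.079), followed by Pxn (0.138) and Zfp692 (0.1003). The nearest to the other brightest probe sets were those of Mycbp2 (0.029) and Coq9 (0.039) for Miat, Lpin2 (0.035) and Panx1 (0.038) for Snhg11, Sqle (0.028) and Rpn1 (0.033) for Gas5, and Prkar1a (0.023) and Rorb (0.042) for Rian. These are descriptions of 6 arrays.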

How the data were processed

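RNA from 6 mice was measured on 1-colour Affymetrix MOE430 2.0 arrays. The deposited values are linear signal intensities, made with GCOS per the submitters' processing notes; the values show that each array's mean after trimming 2% at each end is about 100. Array software settings are otherwise not given in the sources used here. Groups were taken from the sample labels. Signals were used as deposited, as log2(signal + 16), so fold changes of dim probe sets are understated. Non-control probe sets with a mean log2 value above the median were tested (22518), with limma 3.58.1 in R 4.3.3 (trended eBayes, two-sided, Benjamini-Hochberg, threshold 0.05). Within-gene differences were tested the same way without a trend. Exact two-sided permutation tests over 3 against 3 arrays cannot go below 0.1. Both fits were tested on simulated data with independent noise in each probe set. That simulation held no difference of a whole array, so it says nothing about such effects. Gene symbols came from the platform annotation: 34945 probe sets have 1 symbol, 932 several and 9160 none. The members and the gene lists were chosen with earlier results of these data known. Named are all members, Tyrobp, list genes that passed or had the smallest p, a few fixed partner genes, and the 2 nearest patterns for the brightest and each called probe set of a member gene. List genes were counted on their brightest tested probe set. Alternatives covered scaling, the added constant, the filter, the variance model and each array left out; 2 joint omissions were chosen after seeing the data.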

Additional observations from a re-analysis of the deposited data

How the results depend on the processing

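The Tug1 probe set 1456398_at rose under all 8 settings of scaling, constant, filter and variance (log2 change 1.47 to 2.02), and its within-gene difference was called under all 8. The Malat1 call was lost under 4 of these. Members called were 1 with quantile normalization, with a floor of 1, with no filter and with no trend, and 0 to 10 on leaving out 1 array; they were 4 without knockout 67 and 68 (2.75% of all probe sets), and 11 without Ko1 and heterozygous 81 (20.8%). All probe sets called were 445 as reported, 126 with quantile normalization, 124 with no filter, 180 with no trend, 0 to 5226 on leaving out 1 array, 619 without 67 and 68, and 4685 without Ko1 and heterozygous 81. Of the calls, 62.9% were higher in knockout as deposited, 17.2% with arrays centred on their medians, 50.8% with no filter and 47.5% with 75% of probe sets removed as dim. Within-gene differences called were 747 as reported, 215 with quantile normalization, 380 with a floor of 1, 373 with no filter, 238 with 75% removed (fewer tested), 114 without 67 and 68, 2160 without Ko1 and 81, and 0 to 2898 on leaving out 1 array; those of members were 0 to 8 and, without Ko1 and 81, 6. Genes of the fixed lists called were 8 as reported, 1 with quantile normalization, 5 with a floor of 1, 2 with no filter, 2 with no trend, 14 counted over all probe sets, 55 without Ko1 and 81, and 0 to 56 on leaving out 1 array. Signs turned with median centring for Malat1 1418189_s_at (-0.15), 1418188_a_at (-0.15), 1429060_at (-0.12) and 1436202_at (-0.35), Gas5 1449410_a_at (-0.28) and 1424843_a_at (-0.18), and Rian 1440001_at (-0.26). With quantile normalization they turned for Malat1 1436202_at (-0.15), Mirg 1440097_at (0.057) and the within-gene differences of Tug1 1426771_at (-0.11) and Malat1 1418188_a_at (0.11). With a floor of 1 those of Malat1 1418188_a_at (0.0047) and Rian 1427580_a_at (0.034) turned, and with 64 added that of Malat1 1429060_at (-0.082). Leaving out 1 array moved changes across 0 for Malat1 1418189_s_at (-0.49 to 1.63), 1418188_a_at (-0.49 to 1.31) and 1436202_at (-0.095 to 0.34), Neat1 1428083_at (-0.48 to 0.25), Snhg11 1437311_at (-0.82 to 0.46), Gas5 1449410_a_at (-0.027 to 0.27) and 1436222_at (-0.46 to 0.037), Rian 1428055_at (-0.84 to 0.16) and 1440001_at (-0.17 to 0.54), and Mirg 1440097_at (-0.28 to 0.32). Among within-gene differences it did so for Malat1 1452378_at (-0.34 to 0.56), 1429060_at (-0.91 to 0.21) and 1418188_a_at (-0.31 to 0.027), Snhg11 1437311_at (-0.10 to 1.56), Gas5 1436222_at (-0.73 to 0.063) and 1424843_a_at (-0.0037 to 0.22), and Rian 1427580_a_at (-0.47 to 0.39). The sign held under every setting that gave a value for 14 of 26 changes and 10 of 18 within-gene differences; some gave none, where another probe set became the brightest or a filter removed one. The cause was not tested. No paired analysis was possible because the 2 groups share no replicate number.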
